A study of Bos taurus with 18 samples.

Results

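Dermal fibroblasts from the skin of 3 Holstein animals, biopsied at 16 months of age, were compared after 8 h and after 2 h of exposure to lipopolysaccharide (LPS), a component of the outer membrane of Gram-negative bacteria. The libraries were chosen by their labels alone, as those marked 16 months at either of these times, and they are 6 of the 18 libraries of the series: 3 at 2 h and 3 at 8 h, paired by animal. The cells were at their 5th passage, received LPS at 100 ng/ml, and were all from animals that the study had picked as middle responders by interleukin-8 release, with 2 wells pooled for each library. The 3 libraries of the same cultures at 0 h, before LPS, and the libraries at 2 h and 8 h from the same 3 animals biopsied at 5 months are used only for comparison. No cultures kept for 2 h or 8 h without LPS were analysed here, so a change with time in culture and a change with longer LPS exposure cannot be told apart.

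LPS is bound at the cell surface by Toll-like receptor 4 with its partners MD-2 (LY96) and CD14. Adaptor proteins pass the signal to NF-kB and MAP kinases, which switch on immediate early transcription factors, cytokines, chemokines and the inhibitors that later restrain the same pathways. A slower branch, through the adaptor TICAM1 (TRIF), leads to interferon beta, and secreted interferon then induces antiviral genes through transcription factors such as IRF9. In skin, fibroblasts are structural cells that make collagen matrix and also act as sentinels that call in leukocytes.

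Values are given as CPM, the raw count of a gene window scaled by the total over all gene windows of its library, where a gene window spans a gene with its introns. The 6 libraries held 54610408 to 89866215 reads and 66955034 to 107872418 gene window counts. A log2 difference is 8 h minus 2 h as fitted by edgeR, with its standard error (SE), so a positive value is a higher level at 8 h. Fitted values and the differences of single pairs carry the TMM scaling factors of edgeR, which CPM do not. Of the factors, those of animal 3 were 0.717 at 2 h and 1.10 at 8 h, so its pair difference lies 0.62 below the log2 ratio of its CPM, against 0.09 and 0.07 for animals 1 and 2. A gene is called when the edgeR quasi-likelihood test against no change gives an adjusted p (Benjamini-Hochberg) under 0.05 and the fitted change is 2-fold or more. Whether a change exceeds 2-fold was not itself tested. All changes are relative to the bulk of transcripts in a library, and fewer cells carrying a transcript cannot be told apart from less of it per cell. Statements that the values at 2 h and 8 h did not overlap describe named genes, many picked for their large changes. The share of all tested genes without overlap was not counted.

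The 2 h library of animal 3 lay far from all others. The SD of its log2 deviations from the gene medians was 1.59, where the other 11 libraries at 2 h and 8 h of both ages ran from 0.314 to 0.485. Its mitochondrial share was 1.32% against 2.14% to 2.63% in the other 17 libraries, and its share of counts inside gene windows was 71.1% against 74.6% to 83.1%. The difference of pair 3, less the mean of pairs 1 and 2, moved with the length of the window: its median was -1.05 on the log2 scale over 2506 genes of at most 5 kb, -0.35 over 3963 genes of 5 to 20 kb, 0.60 over 4856 genes of 20 to 100 kb and 0.81 over 1716 longer genes. In animals 1 and 2 the medians of the same length classes were -0.13, 0.01, 0.01 and -0.02. The part of this library in the results was not tested beyond leaving the pair out, and so results are given for the 3 pairs and, beside them, for animals 1 and 2 alone, which is also written as without animal 3.

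Between 2 h and 8 h, TNF, 16 of 35 immediate early genes and 7 of 19 feedback inhibitors of NF-kB fell, and 19 of 50 genes of the interferon response rose, as did CXCL6, the complement genes CFB and C3, and the cyclooxygenase PTGS1. In the 3 pairs, 429 of 13041 tested genes were called (3.29%), 236 of them higher at 8 h (1.81%) and 193 lower (1.48%). All 429 had the same sign in 3 of 3 pairs. Without animal 3, 796 of 13170 tested genes were called (6.04%), 426 higher (3.23%) and 370 lower (2.81%). A total of 378 genes were called in both fits, all in the same direction, which is 88.1% of the calls from 3 pairs and 47.5% of the calls from animals 1 and 2. These 378 comprised 201 higher and 177 lower genes. Leaving out 16-month animal 1 or 2 from the 3 pairs, which keeps the distant library beside 1 other pair, gave 0 and 17 calls, and leaving out 5-month animal 1, 2 or 3, which only lend their spread, gave 38, 73 and 41. The 16-month libraries fitted alone gave 0 calls from 3 pairs (1223 genes at an unadjusted p under 0.05) and 796 from animals 1 and 2. The fit of animals 1 and 2 had the smaller spread, with a biological coefficient of variation of 0.0946 against 0.309 for 3 pairs.

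Pair 3 took no part in the calls from animals 1 and 2 and can be set beside them. Of the 426 genes called higher in animals 1 and 2, 393 (92.3%) were also higher at 8 h in animal 3. Of the 370 called lower, 295 (79.7%) were also lower there. Over all 13170 tested genes the sign was shared for 63.2%, being 67.2% of those with a positive and 59.4% of those with a negative difference. The median difference of the genes called higher was 1.31 in animals 1 and 2 and 1.87 in animal 3, and that of the genes called lower was -1.40 and -1.34. These shares depend on the scaling of the distant library. By library totals alone, as CPM are scaled, 411 of the 426 (96.5%) and 245 of the 370 (66.2%) shared the sign, against 80.8% and 45.3% of all tested genes with a positive and a negative difference, and the medians in animal 3 were 2.46 and -0.72. The difference between rises and falls in the share of calls that kept their sign was not tested.

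**Figure D1:**
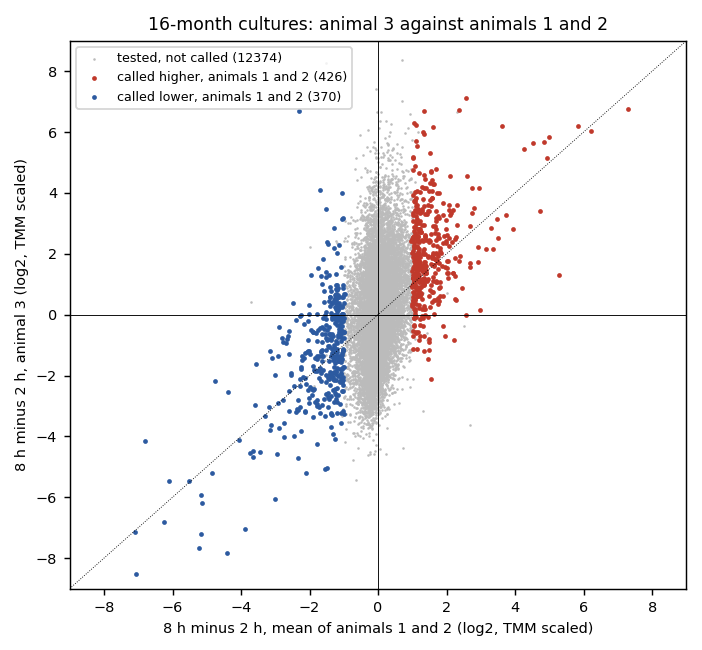
Each point is a gene tested in animals 1 and 2; the x axis is the mean TMM-scaled log2 difference, 8 h minus 2 h, of animals 1 and 2 and the y axis is the TMM-scaled difference in animal 3, with the dotted line marking equality. Most called genes lie in the lower left and upper right (393 of 426 red and 295 of 370 blue points share the sign), while the grey points spread far more along the y axis than along the x axis.

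The gene with the largest fall was TNF, the founding cytokine of the acute inflammatory response, on chromosome 23 at 27533901 to 27536674 (minus strand, UMD 3.1). It stood at 14.9, 4.58 and 9.35 CPM at 2 h in animals 1, 2 and 3 and at 0.0632, 0.0244 and 0.0149 CPM at 8 h. Every 8 h library was far below every 2 h library, and the 8 h levels were near those before LPS (0.0129 to 0.0333 CPM). The log2 difference was -8.27 ± 0.41 (SE, n = 3 pairs, adjusted p = 0.00394) and -7.82 ± 0.25 in animals 1 and 2. Its window overlaps LOC100847561, which fell by 6.33 on the log2 scale (-6.32 without animal 3), and reads of these neighbours cannot be separated here.

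Immediate early genes encode transcription factors and regulators that are switched on within minutes of a stimulus without new protein synthesis. Of 35 tested members, 16 fell and none rose in 3 pairs, against 1.48% of all tested genes called lower. Without animal 3, 19 fell and 2 rose (54.3% and 5.71%, against 2.81% lower and 3.23% higher of all tested genes), and 20 of these 21 had the same sign in animal 3. The list median was -1.14 in 3 pairs and -1.28 in animals 1 and 2, against 0.04 and -0.02 for all tested genes.

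FOSB, a partner of JUN in the AP-1 factor (chromosome 18, 53501995 to 53508418), stood at 53.3, 68.0 and 29.9 CPM at 2 h and at 0.568, 0.342 and 0.299 CPM at 8 h in animals 1, 2 and 3. ARC, best known as a synaptic regulator (chromosome 14, 2892673 to 2894998), was at 4.22, 4.28 and 2.84 CPM at 2 h and at 0.0737, 0.0122 and 0.0149 CPM at 8 h. EGR3, a zinc finger factor of the early growth response family (chromosome 8, 70502499 to 70506409), was at 15.3, 12.8 and 1.12 CPM at 2 h and at 0.137, 0.0855 and 0.0747 CPM at 8 h. For all 3 genes the groups did not overlap, and the low EGR3 value at 2 h is that of the distant library. The log2 differences were -7.18 ± 0.37 for FOSB (adjusted p = 0.00394), -6.99 ± 0.56 for ARC (adjusted p = 0.00809) and -6.46 ± 0.56 for EGR3 (adjusted p = 0.00943). Without animal 3 they were -7.09, -6.60 and -7.03.

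The other falls of the list were spread over the nuclear receptor NR4A1, the AP-1 members JUNB, JUND and FOSL1, the stress-induced genes IER2, IER3 and IER5, the antiproliferative BTG2, the repressor SNAI1, MAFF, KLF10, RRAD and the matricellular CTGF. NR4A1 stood at 299, 202 and 188 CPM at 2 h and at 9.20, 8.91 and 7.80 CPM at 8 h, a log2 difference of -4.96 ± 0.33 (adjusted p = 0.00587, -4.84 without animal 3). JUNB was at 278, 234 and 275 CPM at 2 h and at 57.7, 44.8 and 45.9 CPM at 8 h, a difference of -2.67 ± 0.20 (adjusted p = 0.00757, -2.40 without animal 3). Neither gene's groups overlapped, and neither 2 h value of animal 3 stood apart.

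The list also held members that moved the other way. SGK1, a kinase of salt and stress signalling, was at 25.7, 21.9 and 4.01 CPM at 2 h and at 60.8, 61.3 and 47.4 CPM at 8 h, and at 62.8 to 86.7 CPM before LPS. It was called in animals 1 and 2 (1.29 ± 0.13, adjusted p = 0.000787) and not in 3 pairs (1.82 ± 0.37, adjusted p = 0.0520). KLF2, a factor that quiets inflammatory genes in endothelium, was the other member called higher in animals 1 and 2 (1.62 ± 0.18), with 0.01 in animal 3 (0.63 from its CPM). NR4A3 was called lower in animals 1 and 2 (-1.48 ± 0.10) but its difference in animal 3 was 2.40, where the 2 h library held 1.34 CPM against 28.0 and 30.9 CPM.

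Further genes outside every list were among the largest falls. C2CD4B, a nuclear protein linked to inflammation in endothelium, was at 5.85, 3.11 and 9.13 CPM at 2 h and at 0.0448 to 0.0978 CPM at 8 h, a log2 difference of -6.30 ± 0.73 (adjusted p = 0.0171, -5.57 without animal 3). XIRP1, an actin-binding protein, was at 23.0, 25.9 and 9.38 CPM at 2 h and at 0.253 to 0.489 CPM at 8 h, with -5.99 ± 0.32 (adjusted p = 0.00394, -6.15 without animal 3). ZBTB46, a transcription factor known as a dendritic cell marker, was among the largest falls of animals 1 and 2 (-5.50 ± 0.31) and was at 3.97, 3.00 and 1.51 CPM at 2 h and at 0.0149 to 0.0978 CPM at 8 h.

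**Figure D2:**
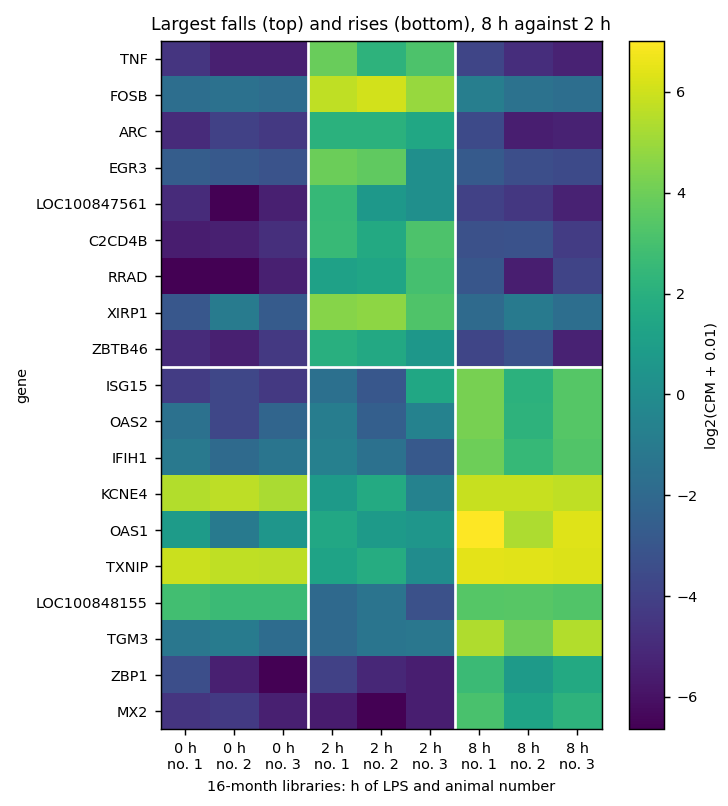
Levels, as log2(CPM + 0.01), of the genes with the largest falls (above the white line) and rises (below it) in the 9 libraries of the 16-month cultures, with columns by h of LPS and animal number. The falling genes are bright only at 2 h, and the antiviral genes are bright only at 8 h, while TXNIP, LOC100848155 and KCNE4 are bright at 0 h and 8 h and dark at 2 h.

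NF-kB is kept in the cytoplasm by I-kappa-B proteins, and its targets include its own inhibitors, which close a feedback loop. Of 19 tested feedback inhibitors, 7 (36.8%) fell and none rose in 3 pairs, against 1.48% of all tested genes called lower. In animals 1 and 2, 10 (52.6%, against 2.81%) fell and none rose, and 8 of these 10 had the same sign in animal 3 (7 by library totals alone). NFKBIA, which encodes the main I-kappa-B (chromosome 21, 46065546 to 46068942), stood at 476, 280 and 245 CPM at 2 h and at 107, 66.6 and 91.5 CPM at 8 h. The groups did not overlap and the log2 difference was -2.14 ± 0.13 (adjusted p = 0.00549, -2.19 without animal 3), yet all 8 h levels were above the 6.58 to 7.37 CPM before LPS.

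NFKBIZ, an atypical nuclear I-kappa-B that co-activates interleukin-6, was at 436, 185 and 58.9 CPM at 2 h and at 33.2, 19.5 and 29.3 CPM at 8 h (-2.93 ± 0.45, adjusted p = 0.0292, -3.56 without animal 3). ZC3H12A, the RNase Regnase-1 that cuts cytokine mRNAs, was at 108, 75.0 and 60.2 CPM at 2 h and at 16.9, 9.27 and 12.4 CPM at 8 h (-2.91 ± 0.16, adjusted p = 0.00451, -2.92 without animal 3). NFKBID was at 28.4, 13.1 and 19.0 CPM at 2 h and at 3.13, 2.76 and 4.17 CPM at 8 h (-2.80 ± 0.22, adjusted p = 0.00809, -2.81 without animal 3). All 3 groups of values separated 2 h from 8 h completely.

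TNFAIP3, the ubiquitin-editing enzyme A20, and BIRC3, an inhibitor of apoptosis in the same complex, were called only without animal 3. TNFAIP3 was at 122, 59.5 and 8.65 CPM at 2 h and at 24.3, 10.7 and 17.2 CPM at 8 h, so that it fell in animals 1 and 2 (-2.47 ± 0.13, adjusted p = 0.00019) while animal 3 had a TMM-scaled difference of 0.37 (0.99 from its CPM). BIRC3 had -1.39 ± 0.15 in animals 1 and 2 and 0.27 in animal 3 (0.88 from its CPM). The 3 members with the highest differences in 3 pairs, SOCS3 (0.71), CYLD (0.43) and IRAK3 (0.40), did not pass the test, and had 0.25, -0.05 and 0.21 in animals 1 and 2.

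Among 5 NF-kB subunits and close partners, 1 fell in 3 pairs and 2 in animals 1 and 2 (20% and 40%, against 1.48% and 2.81% of all tested genes). BCL3, a nuclear co-regulator, fell (-1.67 ± 0.16, adjusted p = 0.0109, -1.60 without animal 3, from 65.6 to 83.5 CPM at 2 h to 23.8 to 34.0 CPM at 8 h). NFKB1 was called lower in animals 1 and 2 (-1.05 ± 0.13) and not in 3 pairs (-0.90 ± 0.18, adjusted p = 0.0511). RELB was called in neither (-1.16 in 3 pairs, -0.87 in animals 1 and 2). In animals 1 and 2 it was past the p threshold (adjusted p = 0.00702) but under 2-fold.

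Of 12 tested genes of MAP kinase feedback, DUSP5, a nuclear phosphatase of ERK, fell in 3 pairs and SPRY1, a Sprouty inhibitor of receptor tyrosine kinases, rose (8.33% each way, against 1.81% higher and 1.48% lower of all tested genes). DUSP5 was at 12.5, 13.6 and 7.82 CPM at 2 h and at 1.07, 1.15 and 1.51 CPM at 8 h (-3.42 ± 0.48, adjusted p = 0.0226, -3.63 without animal 3). SPRY1 was at 2.5, 1.51 and 0.595 CPM at 2 h and at 9.56, 8.32 and 9.01 CPM at 8 h (2.49 ± 0.32, adjusted p = 0.0186, 2.11 without animal 3), with 13.1 to 19.0 CPM before LPS. Both separated the 2 times completely, in opposite directions. DUSP6 and ERRFI1 were called lower only in animals 1 and 2 (-2.23 and -1.48), and DUSP6 had a difference of 0.00 in animal 3 (0.62 from its CPM).

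Of 22 tested genes of the LPS receptor and its adaptors, 1 fell and none rose in 3 pairs (4.55% called, near the 3.29% of all tested genes), and the list median was 0.37 in 3 pairs and 0.02 in animals 1 and 2. The gene that fell was TICAM1, the adaptor of the interferon branch, at 43.5, 33.5 and 22.4 CPM at 2 h and at 10.6, 11 and 10.6 CPM at 8 h (-1.83 ± 0.15, adjusted p = 0.00873, -1.90 without animal 3). Its 8 h levels lay within a narrow range close to the 9.87 to 10.8 CPM before LPS.

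TLR4 itself was at 3.83, 1.61 and 0.738 CPM at 2 h and at 4.62, 1.83 and 2.81 CPM at 8 h, and its groups overlapped (0.52 ± 0.31, adjusted p = 0.283, 0.15 without animal 3). CD14, at 0.584 to 1.23 CPM at 2 h and 0.855 to 2.20 CPM at 8 h, did not pass either (0.69 ± 0.37, adjusted p = 0.258) and was below the minimum level in animals 1 and 2. TLR2, the receptor of bacterial lipoproteins, was called higher in animals 1 and 2 (1.00 ± 0.31, adjusted p = 0.0382) and not in 3 pairs (0.98 ± 0.30, adjusted p = 0.118). The value lay at the 2-fold minimum, and the TLR2 call was lost by the likelihood-ratio test of edgeR (0.996), by DESeq2 (0.993), without the replicate block (1.15, adjusted p = 0.147), and when animal 1 (0.58) or animal 2 (1.39) was left out as well as animal 3.

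Of the 12 tested cytokines, 4 (33.3%, against 1.48% of all tested genes) fell in 3 pairs, namely TNF, LIF, IL11 and IL1A, and none rose. CSF1 was the fifth to fall in animals 1 and 2 (-1.23), but its difference in animal 3 had the opposite sign (0.96). LIF, of the interleukin-6 family, was at 92.2, 89.9 and 20.5 CPM at 2 h and at 3.49, 6.06 and 5.42 CPM at 8 h (-3.78 ± 0.53, adjusted p = 0.0230, -4.37 without animal 3). IL11, of the same family, was at 2.10, 3.81 and 1.44 CPM at 2 h and at 0.347, 0.648 and 0.224 CPM at 8 h (-2.84 ± 0.27, adjusted p = 0.0112, -2.65 without animal 3), and its window overlaps TMEM190.

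IL6 was at 72.4, 40.4 and 35.2 CPM at 2 h and at 123, 61.2 and 78.3 CPM at 8 h, against 0.180 to 1.01 CPM before LPS. It was higher at 8 h in 3 of 3 pairs but the ranges overlapped, and the rise was not called in 3 pairs (0.58 ± 0.22, adjusted p = 0.174) and in animals 1 and 2 was past the p threshold but under 2-fold (0.60 ± 0.20, adjusted p = 0.0457). IL8, the neutrophil attractant, was at 145, 69.0 and 25.1 CPM at 2 h and at 157, 98.9 and 137 CPM at 8 h. Its difference was 0.76 ± 0.39 in 3 pairs (adjusted p = 0.248) and 0.24 ± 0.23 in animals 1 and 2 (adjusted p = 0.417), with 0.03, 0.45 and 1.83 in the single pairs. Both genes were far above their levels before LPS at either time, and neither was called between 2 h and 8 h.

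Chemokines guide leukocytes, and of 8 tested 1 rose and 1 fell in 3 pairs (12.5% each way, against 1.81% higher and 1.48% lower of all tested genes). CXCL6, a neutrophil attractant of the CXC family (chromosome 6, 90645964 to 90648082), rose from 273, 149 and 57.4 CPM at 2 h to 1393, 568 and 1063 CPM at 8 h (2.56 ± 0.38, adjusted p = 0.0256, and 2.06 ± 0.19 in animals 1 and 2). CXCL2, of the same family, fell from 575, 230 and 334 CPM to 240, 95.7 and 199 CPM (-1.35 ± 0.20, adjusted p = 0.0270, -1.34 without animal 3). Its groups overlapped across animals, since animal 1 was highest at both times, and the 3 pairs gave -1.35, -1.33 and -1.36 with TMM scaling but -1.26, -1.26 and -0.74 from their CPM.

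CX3CL1, a membrane-bound chemokine, was listed at 0 before LPS, stood at 11.9, 5.6 and 7.82 CPM at 2 h and at 3.04, 1.27 and 2.43 CPM at 8 h. It was called lower in animals 1 and 2 (-2.13 ± 0.45, adjusted p = 0.00956) and narrowly not in 3 pairs (-2.19 ± 0.44, adjusted p = 0.0524). CCL20, which attracts cells bearing CCR6, was also at 0 before LPS and passed neither fit (-0.96 ± 0.74 in 3 pairs, -0.92 without animal 3). CXCL12, a constitutive fibroblast chemokine, had a difference of 0.02 in animals 1 and 2.

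Genes of the interferon response gave more rises than any other list. Of 50 tested members, 19 rose and 1 fell in 3 pairs, against 1.81% of all tested genes called higher. Without animal 3, 29 rose and 1 fell (58% and 2%, against 3.23% higher and 2.81% lower of all tested genes), and 27 of these 30 had the same sign in animal 3 (29 by library totals alone). The list median was 1.34 in 3 pairs and 1.16 in animals 1 and 2.

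MX2, an antiviral GTPase (chromosome 1, 143119272 to 143155057), was nearly silent at 2 h, with 2 reads over the 3 libraries, and reached 8.58, 2.43 and 4.51 CPM at 8 h, or 1316 reads. The ratio of these levels was 770, with a 95% Clopper-Pearson interval of 213 to 6366 that covers counting error only. Its window overlaps FAM3B. The edgeR test gave an adjusted p of 0.00549 in 3 pairs and 0.00019 in animals 1 and 2.

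ZBP1, a sensor of Z-form nucleic acids that can start necroptosis (chromosome 13, 59097201 to 59109193), was at 0.0535, 0.0185 and 0.0119 CPM at 2 h and at 6.35, 1.76 and 3.09 CPM at 8 h (6.77 ± 0.43, adjusted p = 0.00585, 6.65 without animal 3). OAS1, which makes the 2-5A activator of RNase L (chromosome 17, 63638182 to 63678163), was at 2.87, 1.72 and 1.46 CPM at 2 h and at 129, 40.7 and 80.8 CPM at 8 h (5.03 ± 0.43, adjusted p = 0.00896, 4.98 without animal 3). Its window overlaps that of OAS2, which also rose (4.36 ± 0.40, 4.87 without animal 3). IFIH1, the cytoplasmic RNA sensor MDA5, was at 0.610, 0.334 and 0.131 CPM at 2 h and at 15.7, 5.73 and 9.81 CPM at 8 h (4.69 ± 0.43, adjusted p = 0.0106, 4.35 without animal 3). In each of these the 2 times were separate, and at 8 h animal 1 was highest and animal 2 lowest.

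Further members called higher in both fits were RSAD2, IFI44, BST2, MX1, DDX58, DHX58, IFIT3, SP100, IFI16, ZNFX1, HERC5, TAP1 and TRIM21. MX1, the best known of the antiviral GTPases, was at 7.33, 2.54 and 9.85 CPM at 2 h and at 104, 11.4 and 70.4 CPM at 8 h (2.68 ± 0.38, adjusted p = 0.0239, 3.00 without animal 3). BST2, or tetherin, which holds budding virus at the membrane, was at 6.12, 3.68 and 7.50 CPM at 2 h and at 80.7, 24.9 and 50.9 CPM at 8 h (2.82 ± 0.33, adjusted p = 0.0171, 3.18 without animal 3). DDX58, the sensor RIG-I, rose by 2.02 ± 0.25 (adjusted p = 0.0178, 1.76 without animal 3). All 8 h levels of these genes exceeded all 2 h levels.

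ISG15, a ubiquitin-like modifier, depended on the distant library. It was at 0.321, 0.121 and 2.77 CPM at 2 h and at 18.7, 4.40 and 10.6 CPM at 8 h, so the pairs gave 5.68, 4.88 and 1.31 with TMM scaling (1.92 in animal 3 from its CPM). It was called in animals 1 and 2 (5.53 ± 0.29, adjusted p = 0.00019) and not in 3 pairs (4.09 ± 1.01, adjusted p = 0.0787). PSMB8 and PSMB9, subunits of the immunoproteasome, and IFI27 were likewise called only in animals 1 and 2 (1.49, 1.20 and 2.57), and their TMM-scaled differences in animal 3 were -0.80, -0.57 and -0.02. From the CPM of animal 3 they were -0.18, 0.05 and 0.60, so that the sign for PSMB9 and IFI27 turned with the scaling. The short-window genes IFITM1 and IFITM3 passed neither fit, with IFITM3 at 44.0, 38.2 and 227 CPM at 2 h and at 54.4, 36.5 and 43.3 CPM at 8 h.

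The member that fell was IRF1, an early transcription factor of the same system. It was at 279, 161 and 104 CPM at 2 h and at 55.3, 26.2 and 42.0 CPM at 8 h (-2.34 ± 0.18, adjusted p = 0.00794, -2.55 without animal 3). Every 8 h value was below every 2 h value and above the 9.45 to 10.6 CPM before LPS. Its window overlaps LOC100848038.

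**Figure D3:**
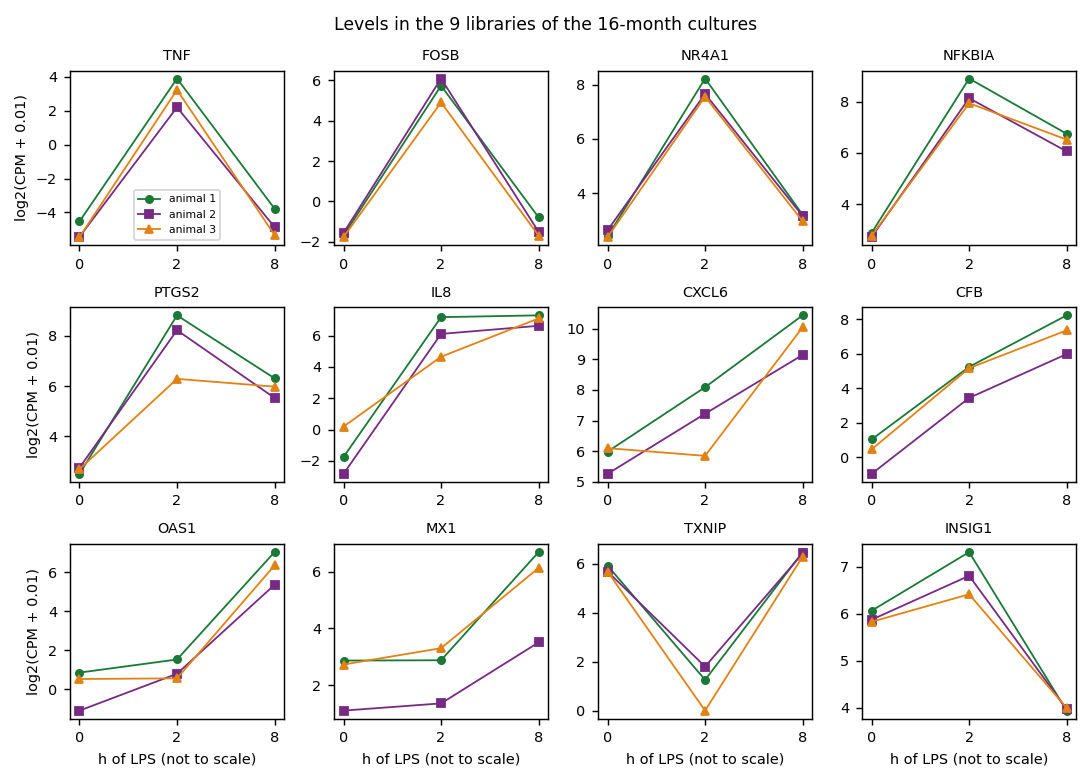
Levels of 12 genes, as log2(CPM + 0.01), at 0, 2 and 8 h of LPS in each of the 3 animals of the 16-month cultures. TNF, FOSB and NR4A1 peak at 2 h, OAS1 and CFB are highest at 8 h in all 3 animals, IL8 stays high at both times, and TXNIP is lowest at 2 h.

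Of 13 tested acute phase and complement genes, 3 (23.1%, against 1.81% of all tested genes) rose and none fell in 3 pairs, and 5 (35.7%, against 3.23%) rose in animals 1 and 2, all 5 with the same sign in animal 3. CFB, complement factor B of the alternative pathway (chromosome 23, 27225266 to 27231292), was at 37.6, 10.8 and 35.7 CPM at 2 h and at 299, 62.9 and 163 CPM at 8 h (2.32 ± 0.30, adjusted p = 0.0197, 2.70 without animal 3). C3, the central complement component, was at 6.58, 5.59 and 5.02 CPM at 2 h and at 22.7, 9.93 and 14.6 CPM at 8 h (1.13 ± 0.21, adjusted p = 0.0451, 1.24 without animal 3). SOD2, the mitochondrial superoxide dismutase, rose by 2.15 ± 0.36 (adjusted p = 0.0344, 1.71 without animal 3). The 8 h and 2 h ranges of CFB and C3 did not touch.

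SAA3, a serum amyloid A made outside the liver, was listed at 0 in all 3 libraries before LPS. It was at 0.899, 0.426 and 2.61 CPM at 2 h and at 12.5, 2.27 and 4.48 CPM at 8 h, and its ranges overlapped through animal 3. The test passed in animals 1 and 2 (3.09 ± 0.39, adjusted p = 0.00155) and not in 3 pairs (2.09 ± 0.76, adjusted p = 0.164). The complement gene C2 behaved in the same way in the tests, with 2.40 ± 0.67 and 2.21 ± 0.70.

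Prostaglandins are made from arachidonic acid by cyclooxygenases. PLA2G4A, the phospholipase that frees arachidonic acid, rose from 27.5, 24.9 and 8.56 CPM to 135, 86.9 and 113 CPM (2.35 ± 0.28, adjusted p = 0.0177, 1.97 without animal 3). PTGS1, the constitutive cyclooxygenase COX-1 (chromosome 11, 93219287 to 93245048), rose from 10.3, 7.23 and 16.2 CPM to 132, 65.5 and 111 CPM (2.96 ± 0.32, adjusted p = 0.0153, 3.36 without animal 3). PTGS2, the inducible COX-2 (chromosome 16, 69263776 to 69271399), went from 451, 299 and 78.1 CPM to 79.3, 46.2 and 63.0 CPM. The fall of PTGS2 passed in animals 1 and 2 (-2.68 ± 0.24, adjusted p = 0.000612) and narrowly not in 3 pairs (-2.11 ± 0.43, adjusted p = 0.0530), and its window overlaps LOC100138376. Over the 11 tested genes of the pathway 2 rose and none fell in 3 pairs (18.2% called, against 3.29% of all tested genes). In animals 1 and 2, 3 rose and 1 fell (36.4% called, against 6.04% of all tested genes), the third rise being the receptor PTGFR.

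A set of genes had its lowest level at 2 h and stood at 8 h near or above its level before LPS. TXNIP, the inhibitor of thioredoxin and of glucose uptake (chromosome 3, 21489097 to 21493258), was at 60.8, 51.5 and 51.3 CPM before LPS, at 2.38, 3.47 and 0.988 CPM at 2 h and at 89.2, 85.9 and 78.5 CPM at 8 h. Its rise from 2 h to 8 h was 5.12 ± 0.42 (adjusted p = 0.00873, 4.84 without animal 3), and its window overlaps LOC100848155, which moved with it. KCNE4, a regulatory subunit of potassium channels (chromosome 2, 111987824 to 111991013), was at 1.73, 3.21 and 0.666 CPM at 2 h and at 51.5 to 58.1 CPM at 8 h, with 38.5 to 50.6 CPM before LPS (4.90 ± 0.58, adjusted p = 0.0177, 4.50 without animal 3).

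TXNIP belongs to a list of 15 tested alpha-arrestins and growth-arrest genes, of which 2 rose and 2 fell in 3 pairs (26.7% called, against 3.29% of all tested genes). The related alpha-arrestins ARRDC3 and ARRDC4 were called higher in animals 1 and 2 (2.35 ± 0.15 and 2.58 ± 0.16) and not in 3 pairs, where animal 3 gave 6.72 and 7.13 from 2 h levels of 0.214 and 0.0595 CPM. GAS1 was the other rise (1.86 ± 0.36, adjusted p = 0.0486, 1.35 without animal 3). The falls were GADD45B, a stress sensor, with 2 h levels of 134 to 187 CPM and 8 h levels of 34.5 to 53.0 CPM (-2.12 ± 0.27, adjusted p = 0.0180, -1.78 without animal 3), and CDKN1C, the cyclin kinase inhibitor p57. CDKN1C was at 1.51, 1.32 and 1.89 CPM at 2 h and at 0.0632, 0.196 and 0.105 CPM at 8 h (-4.00 ± 0.59, adjusted p = 0.0262, -3.58 without animal 3), although its 2 h levels were close to the 1.5 to 1.80 CPM before LPS.

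Of 20 tested heat shock and unfolded protein genes, 2 rose and 1 fell in 3 pairs (15% called, against 3.29% of all tested genes), and 4 rose and 1 fell in animals 1 and 2 (25%, against 6.04%). CHAC1, which breaks down glutathione, was at 2.49, 5.99 and 3.30 CPM at 2 h and at 34.8, 46.4 and 36.2 CPM at 8 h (3.15 ± 0.33, adjusted p = 0.0143, 3.26 without animal 3). TRIB3, a pseudokinase induced under amino acid shortage, rose by 1.28 ± 0.14 (adjusted p = 0.0158, 1.33 without animal 3). The study, taking both ages together, lists CHAC1 and TRIB3 as lower at 2 h than before LPS. The rises of these genes are therefore from a lowered 2 h level. DDIT3 and SESN2 were the further rises in animals 1 and 2 (1.74 and 1.12). The gene that fell, DNAJB1, is a partner of HSP70 (-1.15 ± 0.13, adjusted p = 0.0154, -1.06 without animal 3). The small heat shock proteins HSPB1 and CRYAB were called in neither fit. In animals 1 and 2 they were past the p threshold but under 2-fold (-0.94 and -0.62, adjusted p = 0.000254 and 0.00274). HSPB1 stood at 838 CPM in the 2 h library of animal 3 against 239 and 315 CPM in those of animals 1 and 2.

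Cholesterol synthesis genes are driven by SREBP2 when sterols are low. Of 18 tested, 3 fell and none rose in 3 pairs (16.7%, against 1.48% of all tested genes called lower), and 6 fell and none rose in animals 1 and 2 (33.3%, against 2.81%), of which 4 had the same sign in animal 3. The list median was -0.91 in 3 pairs and -0.92 in animals 1 and 2. INSIG1, the sterol-regulated anchor that holds back SREBP processing (chromosome 4, 117906798 to 117920023), was at 159, 112 and 85.3 CPM at 2 h and at 15.3, 15.7 and 15.9 CPM at 8 h (-3.13 ± 0.16, adjusted p = 0.00394, -3.18 without animal 3).

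The 8 h levels of INSIG1 were also below those before LPS (56.9 to 67.0 CPM). HMGCS1, an early enzyme of the pathway, was at 503, 406 and 179 CPM at 2 h and at 147, 131 and 150 CPM at 8 h (-1.48 ± 0.22, adjusted p = 0.0259, -1.79 without animal 3). SQLE, squalene epoxidase, fell by 1.21 on the log2 scale (SE 0.17, adjusted p = 0.0242, -1.42 without animal 3). LSS, lanosterol synthase, was called lower only in animals 1 and 2 (-1.02), with a difference of 0.87 in animal 3 (1.48 from its CPM).

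**Figure D4:**
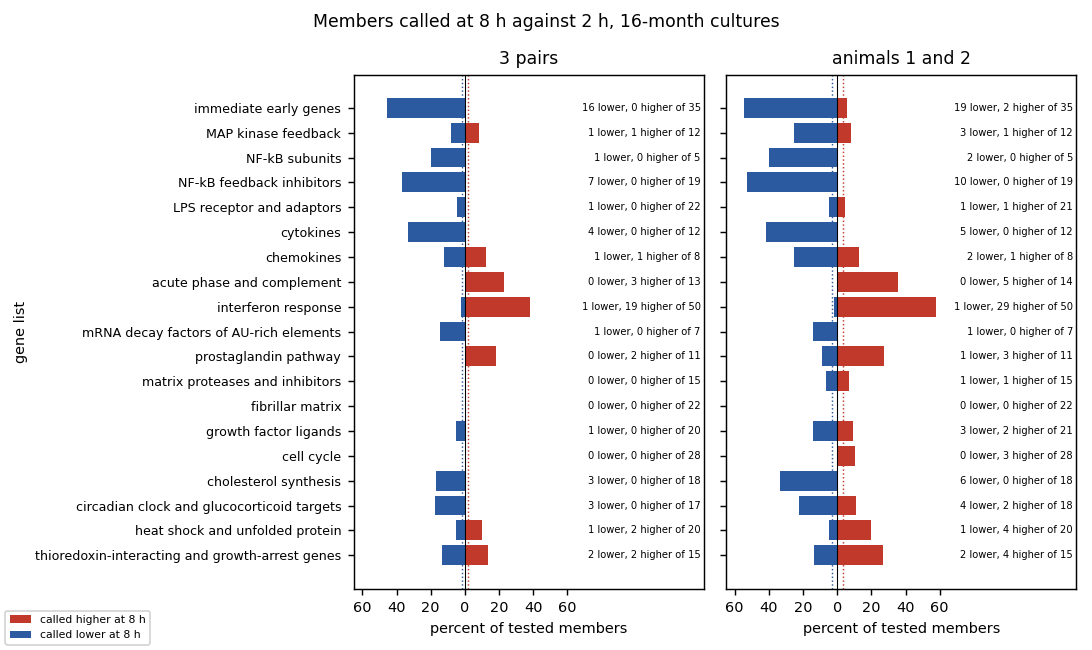
Percent of the tested members of each gene list called higher (red, to the right) or lower (blue, to the left) at 8 h against 2 h, for 3 pairs and for animals 1 and 2, with the counts printed at the right and dotted lines at the shares over all tested genes. Immediate early genes and NF-kB feedback inhibitors reach to the left and the interferon response to the right in both panels.

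Of 17 tested circadian clock genes and glucocorticoid targets, 3 (17.6%) fell in 3 pairs, against 1.48% of all tested genes: KLF15 (-3.27 ± 0.43, adjusted p = 0.0204, -2.92 without animal 3), the clock output factor DBP (-1.70 ± 0.33, adjusted p = 0.0472, -1.23 without animal 3) and the clock repressor BHLHE40 (-1.39 ± 0.19, adjusted p = 0.0226, -1.65 without animal 3). In animals 1 and 2, 4 of 18 fell and 2 rose (33.3% called, against 6.04%), and the core clock activator ARNTL was at 16.4 and 16.6 CPM at 2 h and at 56.8 and 42.5 CPM at 8 h there (1.5 ± 0.13, adjusted p = 0.000549). Of 7 decay factors of AU-rich mRNAs 1 fell (14.3%, against 1.48% of all tested genes), namely ZFP36L2 (-1.30 ± 0.13, adjusted p = 0.0137, -1.43 without animal 3), while ZFP36, or tristetraprolin, had -0.67 in animals 1 and 2, under the 2-fold minimum.

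Of 20 tested growth factor ligands, PDGFA was the only one called in 3 pairs (5%, against 3.29% of all tested genes), and it fell (-1.76 ± 0.18, adjusted p = 0.0143, -1.68 without animal 3). Of 21 tested in animals 1 and 2, 5 were called (23.8%, against 6.04% of all tested genes), where HBEGF and TGFB2 also fell (-4.69 and -1.18) and FGF7 and EREG rose (1.31 and 1.12). FGF7, a fibroblast product that acts on keratinocytes, was at 70.5, 53.6 and 9.04 CPM at 2 h and at 188, 138 and 194 CPM at 8 h. Its 8 h levels were above all 2 h levels, and the 3-pair test did not pass (2.10 ± 0.54, adjusted p = 0.0847).

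Of 28 tested cell cycle genes, none was called in 3 pairs, and 3 (10.7%, against 3.23% of all tested genes) rose in animals 1 and 2: CDC6 (2.25 ± 0.43), CCNE2 (1.13 ± 0.15) and MCM3 (1.10 ± 0.17). CDC6, which loads the replicative helicase, was at 2.07, 1.97 and 1.49 CPM at 2 h and at 9.40, 10.9 and 12.9 CPM at 8 h, and did not pass in 3 pairs (adjusted p = 0.0609). Members that were not called in animals 1 and 2 included CCNE1 (0.87), TYMS (-0.25), CDC20 (-0.08) and CCNB2 (-0.17).

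None of 22 tested fibrillar matrix genes was called in either fit, that is, past both the p threshold and the 2-fold minimum, where 3.29% and 6.04% of all tested genes were. Their median was 0.60 in 3 pairs and 0.08 in animals 1 and 2. FBN1, or fibrillin-1, a long gene, stood at 2666 and 2886 CPM at 2 h in animals 1 and 2 and at 189 CPM in animal 3, with 3177 to 3326 CPM at 8 h, which gave 0.17, 0.14 and 3.49 in the 3 pairs with TMM scaling. TIMP2 was the reverse, at 778 and 694 CPM and 2096 CPM at 2 h and 640 to 769 CPM at 8 h. Of 15 matrix proteases and inhibitors none was called in 3 pairs, and in animals 1 and 2, 1 rose and 1 fell (13.3% called, against 6.04%). The rise was that of the stromelysin MMP3 (1.52 ± 0.37, adjusted p = 0.0159).

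Markers of the labelled cell type were abundant and those of most other skin cells were near 0. The summed level of 10 fibroblast markers was 79400, 67414 and 32193 CPM at 2 h and 97578, 72798 and 86156 CPM at 8 h, the low value being the distant library. The 8 macrophage markers summed to 2.49 to 3.97 CPM at 2 h and 2.42 to 3.61 CPM at 8 h, with 7 of 8 under 1 CPM in every library and TYROBP at 0. T cell markers summed to at most 0.139 CPM, keratinocyte markers to 1.21 to 3.1 CPM with KRT1 at 0, endothelial markers to 2.18 to 4.13 CPM and melanocyte markers to 3.53 to 10.6 CPM. Markers shared by smooth muscle and pericytes, which cultured fibroblasts can also express, summed to 4318 to 6399 CPM at 2 h and 2669 to 4870 CPM at 8 h.

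The same interval was measured in cultures of these 3 animals from 5 months of age, which asks whether the change between 2 h and 8 h depends on age. As a test of the difference between ages, none of 12911 genes was called with all libraries (0%). Each culture was its own block, so the pairing of an animal's changes across the ages was not used. The smallest adjusted p was 0.707, and 259 genes had an unadjusted p under 0.05. The edgeR likelihood-ratio test called 7 and DESeq2 called 19. Without 16-month animal 3, 1 of 12919 genes was called (0.00774%), and 1722 had an unadjusted p under 0.05. The gene was ACAN, the cartilage proteoglycan aggrecan, with a difference of -0.16 ± 0.06 in 16-month animals 1 and 2 against 1.38 in 5-month cultures (adjusted p of the difference = 0.0390).

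Side by side, the immediate early list had a median of -1.03 in 5-month cultures and the cholesterol list -0.99, near the 16-month values of -1.28 and -0.92 in animals 1 and 2. The feedback inhibitors of NF-kB had -0.42 against -1.26. Without 16-month animal 3 their difference between ages was positive for 5 of 19, with 11 at an unadjusted p under 0.05 (edgeR). It was positive for 11 of 35 immediate early genes, with 13 at such a p, and for 0 of 7 chemokines. No gene of these 3 lists was called. The interferon list had a median of 0.41 in 5-month cultures, with 41 of 50 members positive, against 1.16 in 16-month animals 1 and 2. The difference between ages was positive for 42 of 43 interferon genes tested without 16-month animal 3, with a median of 0.57 and 32 at an unadjusted p under 0.05, but the smallest adjusted p was 0.0665. With all libraries 34 of 43 were positive, the median was 0.84, 14 had an unadjusted p under 0.05, and the smallest adjusted p was 0.707. Over all tested genes the median was -0.01 without 16-month animal 3, with 1722 of 12919 at an unadjusted p under 0.05. With all libraries it was 0.01, with 259 of 12911 at such a p. OAS1 had 2.27 in 5-month cultures against 4.98 in 16-month animals 1 and 2, and ISG15 had 2.66 against 5.53. A larger rise of interferon genes in the older cultures was not called for any single gene of the list.

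**Figure D5:**
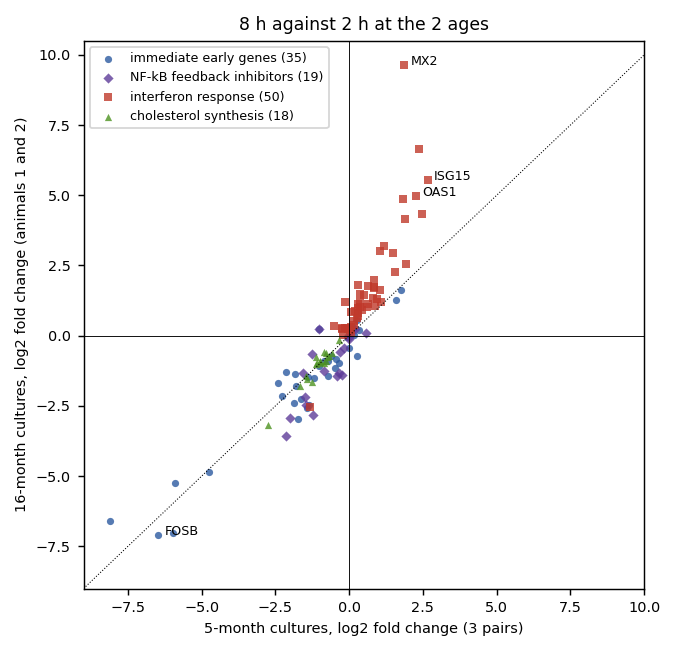
Log2 fold change, 8 h against 2 h, in 5-month cultures (x axis, 3 pairs) and in 16-month cultures (y axis, animals 1 and 2) for the members of 4 gene lists; the dotted line marks equality. Interferon genes lie mostly above the line, with medians of 0.41 and 1.16, and immediate early genes lie along it, with medians of -1.03 and -1.28.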

How the data were processed

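Poly-A RNA was sequenced as single-end reads. The authors filtered the reads, matched them to the UMD 3.1 assembly with NextGENe and deposited raw read counts per window, one file per library, not normalized. Whether strand was used is not stated in the sources used here, and 50 of the 429 called genes overlap another gene window, so their counts are uncertain. Members and gene lists were chosen with earlier results of these data known.

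The test of named gene windows was that of edgeR 4.0.16 under R 4.3.3 (glmQLFit and glmQLFTest, TMM factors, two-sided, Benjamini-Hochberg adjustment over all tested genes) on the 12 libraries at 2 h and 8 h of both ages, with the culture as block and the contrast in the 16-month libraries. The fit without animal 3 left out both of its 16-month libraries. Tested genes had at least 1 CPM in at least 3 of 6 (or 2 of 4) 16-month libraries. The pairing comes from the labels, where the replicate number is the animal. Across genes, deviations from the group mean at 2 h and 8 h correlated at 0.04, 0.35 and -0.03 within animals 1, 2 and 3, and at 0.18 and 0.17 between animals 1 and 3 across their numbers. Nothing says that pooled wells were separate cultures, so p-values measure the spread between these animals' samples, pooled over both ages. Pair differences by library totals alone were added after seeing the data. Scripts were tested on simulated data.

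Named are, from each fit, the 8 largest rises and 8 largest falls that were called, averaged over 1 CPM and had one sign in 3 of 3 pairs, the 3 highest and 3 lowest members of each of 19 lists (349 genes tested), the 6 RT-PCR genes of the study (TNF, IL8, CCL20, SAA3, CD14, TLR4) and genes called between ages. Not all of these are described, some items are not reported here, and the other members and genes named were chosen after their values were seen. Alternatives were other scaling factors, filters, tests (DESeq2 1.42.0, limma 3.58.1), blocks and left-out libraries. Intervals cover counting error only.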

Additional observations from a re-analysis of the deposited data

Results flagged for a closer look

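The change between 2 h and 8 h differed between the ages for ACAN when 16-month animal 3 was left out, by -1.56 ± 0.11 on the log2 scale (16 months less 5 months, adjusted p = 0.0390 in the edgeR quasi-likelihood test). ACAN was at 57.8, 21.7 and 18.1 CPM at 2 h and at 53.0, 21.2 and 49.2 CPM at 8 h in the 16-month cultures of animals 1, 2 and 3, and its mean in 5-month cultures went from 0.88 to 2.46 CPM. With all libraries the difference was -1.21 and the adjusted p was 0.707. Age and culture set cannot be told apart for this gene.

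ADAMTS9, a matrix metalloprotease, was higher at 8 h in every 16-month pair (0.58, 0.02 and 2.52 in animals 1, 2 and 3) and lower in every 5-month pair. The difference between ages was 1.44 on the log2 scale with an adjusted p of 0.707, so it did not pass, and without 16-month animal 3 it was 0.74 (adjusted p = 0.216). Its window overlaps LOC100848439.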

How the results depend on the processing

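From 3 pairs, 429 genes were called, and other settings gave 1130 (DESeq2), 971 (likelihood-ratio test of edgeR) and 783 (voom with sample weights). Without a replicate block the count was 645. With the 16-month libraries alone and the replicate block it was 0, with 1223 genes at an unadjusted p under 0.05. Leaving out 1 replicate at a time gave 0 to 796 calls: 0, 17 and 796 without 16-month animal 1, 2 or 3, and 38, 73 and 41 without 5-month animal 1, 2 or 3. Other scaling and filters gave 332 to 457. From animals 1 and 2, 796 genes were called, 6203 without the 2-fold minimum, 655 without a replicate block, and 701 to 857 with 1 further replicate left out. The 701 and 857 leave 1 animal in the 16-month contrast, which is assumed to vary like the 5-month cultures. For the difference between ages, 0 genes were called, 7 by the likelihood-ratio test, 19 by DESeq2, and 0 to 1 with 1 replicate left out. Of the 122 genes that the naming rule gives, none turned from a call in one direction to a call or value in the other in 3 pairs. Differences near 0 that were not called did change sign, such as CYLD (0.43 in 3 pairs, -0.05 in animals 1 and 2, 0.03 there by library size alone). Scaling by library size alone moved the median of all genes to 0.29 (3 pairs) and 0.06 (animals 1 and 2), and turned the 3-pair medians of the MAP kinase feedback and prostaglandin lists to 0.05 and 0.24. The calls of NFKB1 and DNAJB1 in animals 1 and 2 were lost by library size alone (-0.97 and -0.98, under the 2-fold minimum), those of C2 and EREG by DESeq2 (adjusted p = 0.0525 and 0.0574), and those of C2, EREG, CFB, CXCL2 and MMP3 without the replicate block. The cause was not tested. Depth limits genes such as MX2, with 2 reads at 2 h over 3 libraries.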

Other observations

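Outside every list, 172 genes were called higher and 134 lower in both fits. The following were chosen after their values were seen. NFATC1, a calcium-regulated transcription factor, fell from 267, 205 and 283 CPM at 2 h to 23.4, 16.8 and 19.5 CPM at 8 h in animals 1, 2 and 3 (-3.92 ± 0.30, -3.64 without animal 3). CD83, known from mature dendritic cells, fell from 24.9, 9.26 and 14.0 CPM to 1.04, 0.171 and 0.269 CPM (-5.54 ± 0.43, -5.02 without animal 3). The groups of both genes were separate. F3, the tissue factor that starts coagulation, had a log2 difference of -2.40 (-2.91 without animal 3), MAP3K8, a kinase upstream of ERK, one of -3.32 (-3.31), and the chemokine receptor CXCR4 one of -2.58 (-2.31).

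CH25H and CYP7B1, both sterol hydroxylases, rose. CH25H, which makes 25-hydroxycholesterol, went from 3.37, 3.87 and 2.75 CPM to 11.1, 21.6 and 10.8 CPM (1.80 ± 0.25, 2.03 without animal 3), and CYP7B1, which hydroxylates it further, from 1.89, 2.42 and 1.88 CPM to 6.87, 7.75 and 6.23 CPM (1.5 ± 0.19, 1.69 without animal 3). Both were higher at 8 h than in any 2 h library. Before LPS, CH25H was at 10.0, 13.7 and 8.64 CPM, so its lowest levels were those at 2 h. CYP7B1 was at 0.699, 1.27 and 0.348 CPM before LPS. TGM3, a transglutaminase of the epidermis, was at 0.246, 0.389 and 0.417 CPM at 2 h and at 42.0, 16.4 and 43.8 CPM at 8 h (6.22 ± 0.54, 6.27 without animal 3). KCNJ2, a potassium channel, was at 0.300, 0.825 and 0.0357 CPM at 2 h, at 6.07, 7.37 and 5.75 CPM at 8 h and at 6.14 to 6.92 CPM before LPS (4.32 ± 0.69, 3.58 without animal 3).

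Gene symbols that begin with ZNF, which mostly name zinc finger factors, were looked at after the calls were seen. Of 253 tested, 35 (13.8%) were called higher and 1 lower in 3 pairs, against 1.81% and 1.48% of all genes. In animals 1 and 2, 59 of 258 (22.9%) were called higher and 2 lower, against 3.23% and 2.81% of all genes, and their median was 0.48, against -0.02 for all genes. The medians of the single pairs were 0.48, 0.48 and 1.16, and the median in 5-month cultures was 0.45.

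In some windows the 3 animals differed by more than 8-fold at some times, counted over both ages, and not always with the same animal apart. LOC532218 exceeded this range in 4 of the 6 groups of age and time, and among 16-month groups before LPS only. It was at 2.43, 27.0 and 26.6 CPM before LPS, at 23.1, 59.7 and 159 CPM at 2 h and at 2.48, 2.74 and 1.84 CPM at 8 h in animals 1, 2 and 3, and was called lower in animals 1 and 2. LOC100848478 was at 121, 173 and 172 CPM before LPS, at 115, 2.23 and 4.71 CPM at 2 h and at 1.83, 180 and 1.85 CPM at 8 h, and was called in neither fit.

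The likeness of the animals was also compared. The SD of log2 differences between the 0 h libraries was 0.211 for animals 1 and 2, 0.102 for animals 1 and 3 and 0.198 for animals 2 and 3, over 4609 genes. At 8 h it was 0.255, 0.149 and 0.198 over 4636 genes. At 2 h it was 0.237, 1.12 and 1.12 over 3028 genes.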
